A study of Mus musculus with 8 samples.

Results

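The matrix metalloproteinases (MMPs) and their tissue inhibitors (TIMPs) were followed in brown adipose tissue (BAT) of wild-type (WT) and Ucp1Δ/Δ mice. The set held 10 of the 31053 genes in the count table. It comprised 6 proteases (Mmp2, Mmp3, Mmp9, Mmp12, Mmp14 and Mmp19) and 4 inhibitors (Timp1, Timp2, Timp3 and Timp4). The set was selected on these same data, because the Mmp12 counts were among those that rose most between the genotypes. The genotype values of the 10 genes, and which of them passed the threshold of the fit over all genes, are therefore given as a description and not as a test of the set.

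RNA of BAT was sequenced from 4 WT and 4 Ucp1Δ/Δ mice, all of the strain written C57BL6/J in the labels. The labels give an age of 10 weeks, whereas the study's text gives a younger age for these mice. Ucp1Δ/Δ mice, labelled ATGLKO, carried floxed Pnpla2 alleles and a Cre recombinase driven by the Ucp1 promoter, so that adipose triglyceride lipase (ATGL) was removed from cells that express Ucp1 while other cell types kept the gene. Whether the WT mice carried the floxed alleles without Cre was not stated in the sources used here. The labels name the stromal vascular fraction as the cell type, yet 8 brown adipocyte markers, Ucp1 among them, summed to between 9026 and 20663, in counts scaled to library size (CPM), in every mouse.

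MMPs are zinc-dependent endopeptidases that cleave collagens, elastin, proteoglycans, cytokines and receptors outside the cell. Most are secreted as inactive proenzymes, while a membrane-type subgroup stays anchored at the cell surface. TIMPs bind the active site of the enzymes and block it, and TIMP2 also helps the membrane-type enzyme MMP14 to activate proMMP2. In adipose tissue these proteins are known for the turnover of the matrix around enlarging fat cells.

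Total counts ranged from 2017697 to 3115956 in WT and from 2240612 to 2941799 in Ucp1Δ/Δ mice, so that 3 counts corresponded to between 0.963 and 1.49 CPM before scaling. Pnpla2, the targeted gene, fell from 2913 ± 191 CPM (SD, n = 4) to 474 ± 59.2 CPM (n = 4), a log2 fold change (log2FC) of -2.62 (SE 0.17, edgeR adjusted p = 1.97e-07). Skeletal muscle markers were uneven within both genotypes: 7 of them summed to between 18.4 and 1382 CPM in WT and between 59.3 and 1813 CPM in Ucp1Δ/Δ mice. Intervals cover counting error only, and p-values measure the spread between these 8 mice.

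Mmp12 and Mmp3 lie in a cluster of 10 Mmp genes on mouse chromosome 9 (GRCm38/mm10) that spans 427 kb. Mmp12 occupies chr9:7344381-7369499 and Mmp3 occupies chr9:7445822-7455975, both on the plus strand. The promoter windows of these genes and of their neighbours Mmp13 and Mmp10 are shown because neighbouring genes of the cluster were counted at very different levels. Each window is 300 bases of RefSeq sequence (GRCm38.p6, plus strand), with 250 bases before the annotated start. Capitals mark matches to the AP-1 motif TGANTCA and to the TATA box TATAAA, searched on both strands.
Mmp13, chr9:7272264-7272563: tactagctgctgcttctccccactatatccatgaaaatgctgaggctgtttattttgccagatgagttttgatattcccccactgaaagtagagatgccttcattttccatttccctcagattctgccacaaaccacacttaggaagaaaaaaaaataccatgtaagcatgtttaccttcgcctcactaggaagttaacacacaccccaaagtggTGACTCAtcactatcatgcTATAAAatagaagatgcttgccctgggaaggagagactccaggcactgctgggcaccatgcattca
Mmp12, chr9:7347124-7347423: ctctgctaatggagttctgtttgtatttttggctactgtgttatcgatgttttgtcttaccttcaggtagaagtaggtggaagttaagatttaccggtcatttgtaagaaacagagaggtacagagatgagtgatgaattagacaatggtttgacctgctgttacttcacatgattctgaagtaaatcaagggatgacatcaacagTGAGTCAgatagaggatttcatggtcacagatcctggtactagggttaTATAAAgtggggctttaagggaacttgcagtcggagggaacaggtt
Mmp3, chr9:7445572-7445871: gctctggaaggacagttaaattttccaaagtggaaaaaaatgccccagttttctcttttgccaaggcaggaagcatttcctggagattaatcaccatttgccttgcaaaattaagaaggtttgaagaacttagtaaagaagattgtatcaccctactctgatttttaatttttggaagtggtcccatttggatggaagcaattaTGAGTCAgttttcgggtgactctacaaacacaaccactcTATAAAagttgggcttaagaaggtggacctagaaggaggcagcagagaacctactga
Mmp10, chr9:7502092-7502391: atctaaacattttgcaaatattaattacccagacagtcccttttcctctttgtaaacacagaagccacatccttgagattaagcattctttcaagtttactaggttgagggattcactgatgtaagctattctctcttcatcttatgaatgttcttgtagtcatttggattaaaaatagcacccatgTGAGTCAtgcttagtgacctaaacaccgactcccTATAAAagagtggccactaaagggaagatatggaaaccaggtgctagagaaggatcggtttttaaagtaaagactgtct

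The AP-1 match of Mmp12, TGAGTCA, lay at -44 to -38 counted from the start base as 0, in the window of the second of its RefSeq starts. That of Mmp3, also TGAGTCA, lay at -46 to -40, and that of Mmp10 at -63 to -57. Mmp13 held TGACTCA at -35 to -29. The TATAAA match of Mmp12 lay at 4 to 9, past the annotated start. Those of Mmp3, Mmp10 and Mmp13 lay at -7 to -2, -29 to -24 and -16 to -11. A window with both matches was found for 8 of the 10 cluster genes, beside 1.54% of 32851 RefSeq promoter windows of the same length. The first value counts genes, of which Mmp12 and Mmp7 had 2 windows each, and the second counts single windows. Among these 8 genes, Mmp1b, Mmp10, Mmp20 and Mmp7 had 0 counts in every mouse. The AP-1 motif alone occurred in 7.81% of all windows and TATAAA in 13.6%. No match to either motif occurred in the windows of Mmp14, Timp1, Timp2, Timp3, Timp4 or the first Mmp12 start. The ETS-type motifs AGGAAG and GAGGAA, which overlap each other within GAGGAAG, occurred in 35.4% and 28.3% of all windows, and are left in lower case. Among the genes of the set, AGGAAG matched in the windows of Mmp3, Mmp14, Timp1, Timp3, Timp4 and the first Mmp12 start, and GAGGAA in that of the first Mmp12 start. Among the other genes of the cluster, AGGAAG matched in Mmp13, Mmp1a, Mmp1b, Mmp7 and Mmp8, and GAGGAA in Mmp10, Mmp7 and Mmp8. A promoter window was given for 7 of the 10 genes, not for Mmp2, Mmp9 and Mmp19.

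Counts along the cluster differed from gene to gene within the same mice. Mmp12 had 2 counts over the WT mice and 468 over the Ucp1Δ/Δ mice. Mmp3, further along the cluster, had 29 and 82 counts. Mmp13, which encodes collagenase-3, had 2, 0, 1 and 1 counts in WT and 7, 12, 6 and 3 in Ucp1Δ/Δ mice, too few for the filter of the test. Mmp8, the neutrophil collagenase gene, had 2 counts in each genotype, and Mmp27 had 1 and 3. Mmp1b, Mmp10, Mmp20 and Mmp7 had 0 counts in every mouse, and Mmp1a was not in the count table. At this depth, levels below the 3-count limit could not be told from 0.

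**Figure D1:**
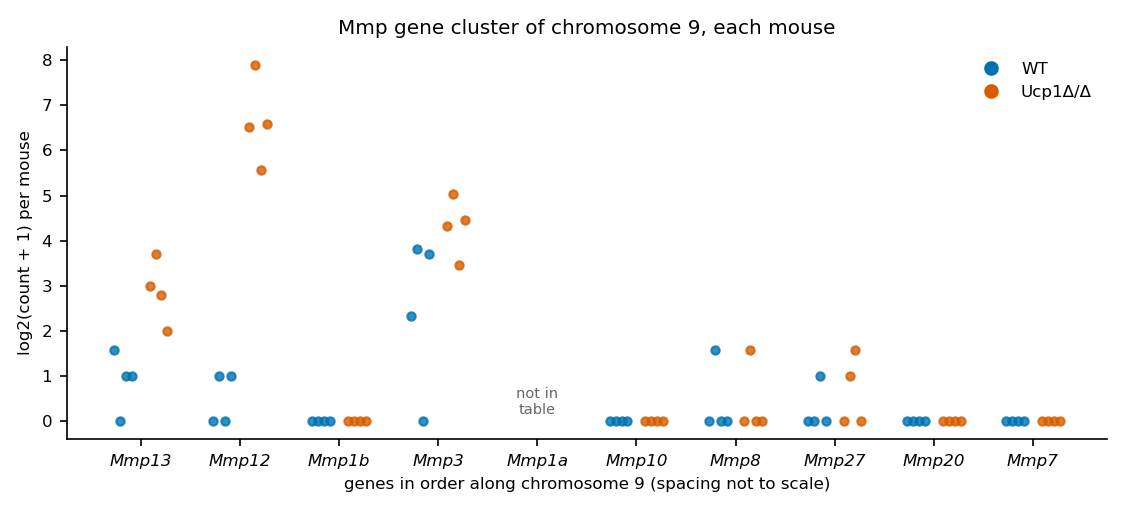
Counts of each mouse on a log2 scale, 4 mice per genotype, for the genes of the chromosome 9 Mmp cluster, in their order along the chromosome. Summed over the 4 mice of a genotype, Mmp12 had 468 counts in Ucp1Δ/Δ against 2 in WT. Mmp3 had 82 against 29 and Mmp13 28 against 4, while other counted genes of the cluster had sums of 3 or fewer.

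Mmp12 encodes macrophage elastase, a secreted enzyme that cleaves elastin and is made mainly by macrophages. It was counted 0, 1, 0 and 1 times in WT replicates 1 to 4 and 90, 237, 46 and 95 times in Ucp1Δ/Δ replicates 1 to 4. On the TMM-scaled CPM scale these were 0, 0.448, 0 and 0.507 against 31.8, 73.7, 19.2 and 40.8 CPM. WT mice were at or next to 0, every Ucp1Δ/Δ mouse was above all of them, and Ucp1Δ/Δ replicate 2 stood highest. The summed counts per library size were 199 times higher in Ucp1Δ/Δ (exact 95% interval 54.8 to 1650, counting error only), and the fitted log2FC was 7.28 (SE 0.65). The Ucp1Δ/Δ mice differed among themselves more in Mmp12 than in any other tested gene of the set, with a coefficient of variation of 56.3%.

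Mmp3 encodes stromelysin-1, which degrades proteoglycans and activates other proMMPs. Its values were 2.04, 5.82, 0 and 6.08 CPM in WT and 6.72, 9.96, 4.18 and 9.01 CPM in Ucp1Δ/Δ mice. The groups overlapped, since 2 WT mice lay above Ucp1Δ/Δ replicate 3. The log2FC was 1.19 (SE 0.57), from 4 to 13 counts in the WT mice that had any.

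Mmp2 and Mmp9 encode the gelatinases A and B, which cleave denatured collagen and basement membrane collagen. Mmp2 (chr8:92827291-92853420, plus strand) was at 11.2, 5.82, 3.67 and 3.55 CPM in WT and at 34.0, 37.0, 23.4 and 30.5 CPM in Ucp1Δ/Δ mice. All Ucp1Δ/Δ mice lay above all WT mice and the log2FC was 2.40 (SE 0.31). Mmp9 (chr2:164940780-164955850, plus strand) had 0, 6, 2 and 2 counts in WT and 9, 4, 6 and 1 in Ucp1Δ/Δ mice. Its groups overlapped and its counts were below the filter of the test.

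Mmp14 (chr14:54431612-54445364, plus strand) encodes the membrane-type enzyme MT1-MMP, the cell-surface activator of proMMP2. It was at 15.8, 15.2, 7.01 and 14.7 CPM in WT and at 27.6, 40.8, 30.1 and 41.6 CPM in Ucp1Δ/Δ mice. The groups were apart, and WT replicate 3 lay well below the other WT mice. The log2FC was 1.43 (SE 0.26). Mmp19 (chr10:128790910-128800824, plus strand), which encodes a secreted MMP that cleaves basement membrane proteins, was at 6.12, 16.1, 7.68 and 9.62 CPM in WT and at 12.0, 21.2, 20.9 and 13.3 CPM in Ucp1Δ/Δ mice. WT replicate 2 lay within the Ucp1Δ/Δ range, and the log2FC was 0.77 (SE 0.30).

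Timp2 (chr11:118301069-118355740, minus strand) encodes the inhibitor that takes part in proMMP2 activation. Its values were 99.9, 30.5, 80.5 and 81.6 CPM in WT and 350, 413, 257 and 343 CPM in Ucp1Δ/Δ mice. Every Ucp1Δ/Δ mouse was above every WT mouse, with a log2FC of 2.22 (SE 0.28). WT replicate 2 was the lowest WT mouse for Timp2.

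Timp3 (chr10:86300372-86349506, plus strand) encodes the inhibitor that binds to the extracellular matrix and also blocks ADAM proteases. It was at 123, 86.9, 95.8 and 187 CPM in WT and at 232, 274, 264 and 303 CPM in Ucp1Δ/Δ mice. The groups did not overlap, and the log2FC of 1.13 (SE 0.22) was lower than that of Timp2. The Ucp1Δ/Δ mice were close to each other, with a coefficient of variation of 10.9%.

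Timp1 (chrX:20870166-20874735, plus strand) encodes a soluble inhibitor that is induced in injured and inflamed tissue. It had 0, 0, 2 and 0 counts in WT and 13, 13, 5 and 8 counts in Ucp1Δ/Δ mice. The groups were apart, but the counts fell below the filter of the test. The summed ratio was 16.6 (exact 95% interval 4.30 to 142, counting error only). Timp4 (chr6:115241892-115252205, minus strand), the inhibitor known for its high level in heart and fat, was at 16.8, 48.8, 27.7 and 51.2 CPM in WT and at 44.6, 31.4, 56.4 and 50.6 CPM in Ucp1Δ/Δ mice. Its groups overlapped widely and its log2FC was 0.34 (SE 0.29).

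**Figure D2:**
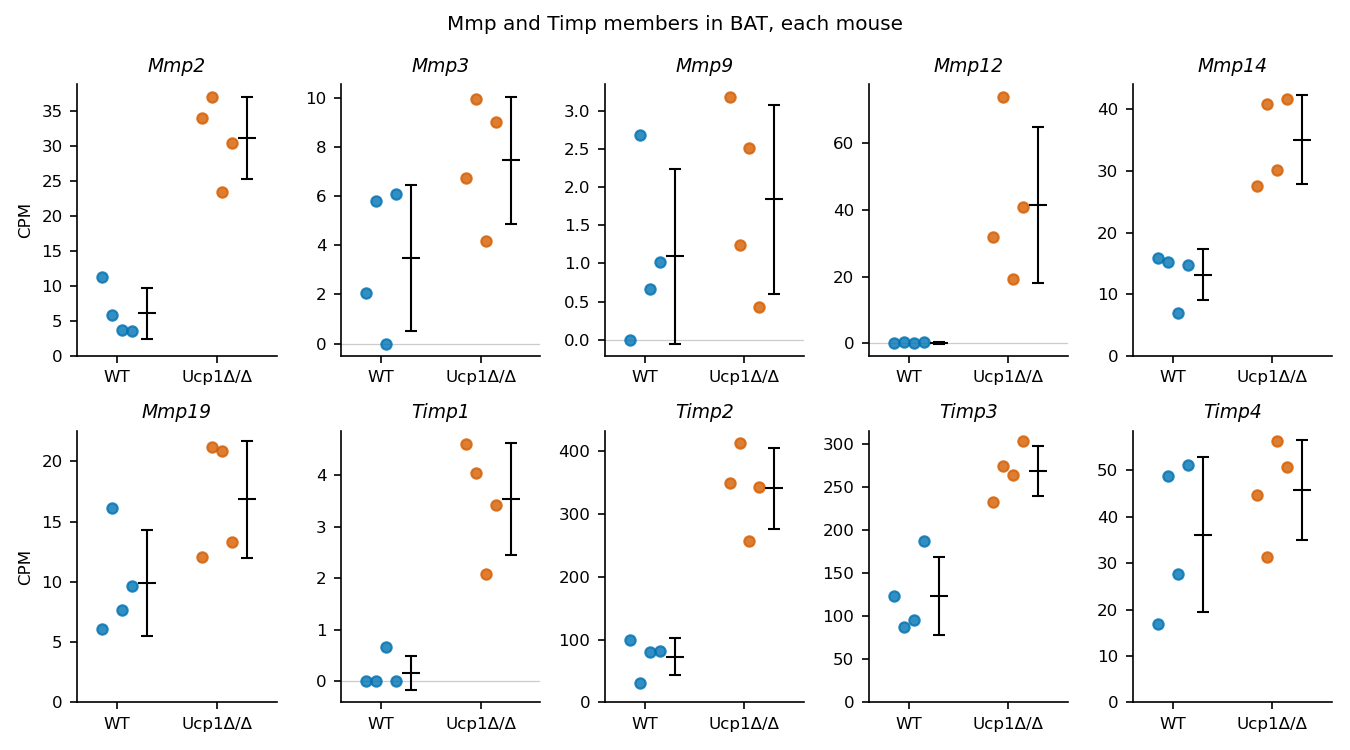
TMM-scaled CPM of each of the 10 genes in each of 4 WT and 4 Ucp1Δ/Δ mice, on a separate axis per gene; points are mice and bars show the mean with the SD. Mmp2, Mmp12, Mmp14, Timp1, Timp2 and Timp3 had no Ucp1Δ/Δ mouse within the WT range, while Mmp3, Mmp9, Mmp19 and Timp4 overlapped.

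Of the 10 genes, 8 passed the count filter. In the edgeR fit 5 of these (Mmp2, Mmp12, Mmp14, Timp2 and Timp3) were called higher in Ucp1Δ/Δ, 0 were called lower and 3 were not called. Over all 8930 genes tested, 13.3% were called higher and 7.63% lower. The same 5 genes had groups that did not overlap, as did 14.4% of all tested genes in this direction. Since the set was chosen on this contrast, nothing is read from these shares. The median log2FC of the 8 genes was 1.31, beside -0.0087 over all genes tested. The highest Ucp1Δ/Δ value was found in replicate 2 for 5 of the 10 genes and the lowest in replicate 3 for 5 genes. Ucp1Δ/Δ replicate 2 also had the highest macrophage, fibroblast and skeletal muscle marker sums of its group. In the 4 mice with the lower muscle marker sums, 2 of each genotype, the same 5 genes were called higher.

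**Figure D3:**
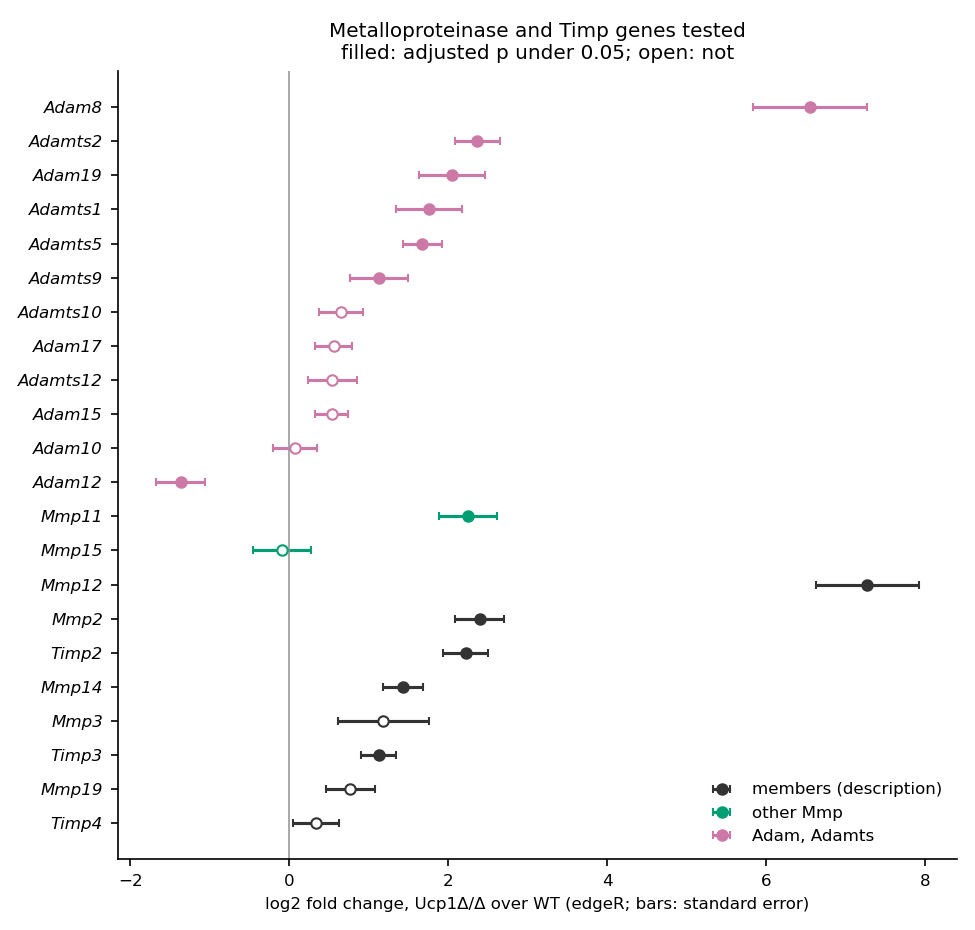
Log2FC (Ucp1Δ/Δ minus WT) with its SE for the tested genes of the set, of the other Mmp genes and of the Adam and Adamts genes, from the edgeR fit over 8 mice. Mmp12 lay at 7.28, Mmp2 at 2.40 and Timp2 at 2.22, against 0.34 for Timp4.

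To set the genes beside each other, CPM were divided by the exonic length of each gene in kilobases. Whether the libraries covered transcripts evenly along their length was not given in the sources used here, so this scale holds only if they did. In WT mice the order of mean CPM per kb was Timp2, Timp3, Timp4, Mmp19, Mmp14, Mmp3, Mmp2, Mmp9, Timp1 and Mmp12. In Ucp1Δ/Δ mice it was Timp2, Timp3, Mmp2, Timp4, Mmp14, Mmp12, Mmp19, Mmp3, Timp1 and Mmp9. On this scale Mmp12 moved from rank 10 to rank 6 and Mmp2 from rank 7 to rank 3. In WT mice neighbours in this order overlapped except for Timp3 and Timp4 and for Mmp2 and Mmp9. In Ucp1Δ/Δ mice they overlapped except for Timp2 and Timp3, Timp3 and Mmp2, and Timp1 and Mmp9. The lowest Timp2 value there was 66.1 CPM per kb and the highest Timp3 value 37.3 CPM per kb. Without the division the order differed. In WT mice mean CPM was then higher for Timp3 (123) than for Timp2 (73.1). In Ucp1Δ/Δ mice Timp2 (341 CPM) and Timp3 (268 CPM) then overlapped. Mmp12 (41.4 CPM) there stood above Mmp14 (35.0 CPM) and Mmp2 (31.2 CPM), with overlapping mice. The ranks therefore depend on the scale.

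The 6 proteases together were at 9.09 ± 3.43 CPM per kb in WT and 30.3 ± 7.0 in Ucp1Δ/Δ mice (SD, n = 4 each), and the 4 inhibitors at 40.2 ± 10.8 and 132 ± 16.4. The ratio of inhibitors to proteases was 4.93, 2.08, 8.18 and 5.27 in WT and 4.83, 3.75, 4.68 and 4.50 in Ucp1Δ/Δ mice. These ratios overlapped, and the WT mice spread more widely. Without the division by length the ratios were 7.55 ± 3.08 and 5.09 ± 0.81 (SD, n = 4 each) and overlapped too. Within the protease sum per kb, Mmp12 took 0 to 0.702% in WT and 11.3 to 25.5% in Ucp1Δ/Δ mice. Timp2 took 29.2 to 58.8% of the inhibitor sum in WT and 59.9 to 70.9% in Ucp1Δ/Δ mice, a gap of little more than 1 percentage point.

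**Figure D4:**
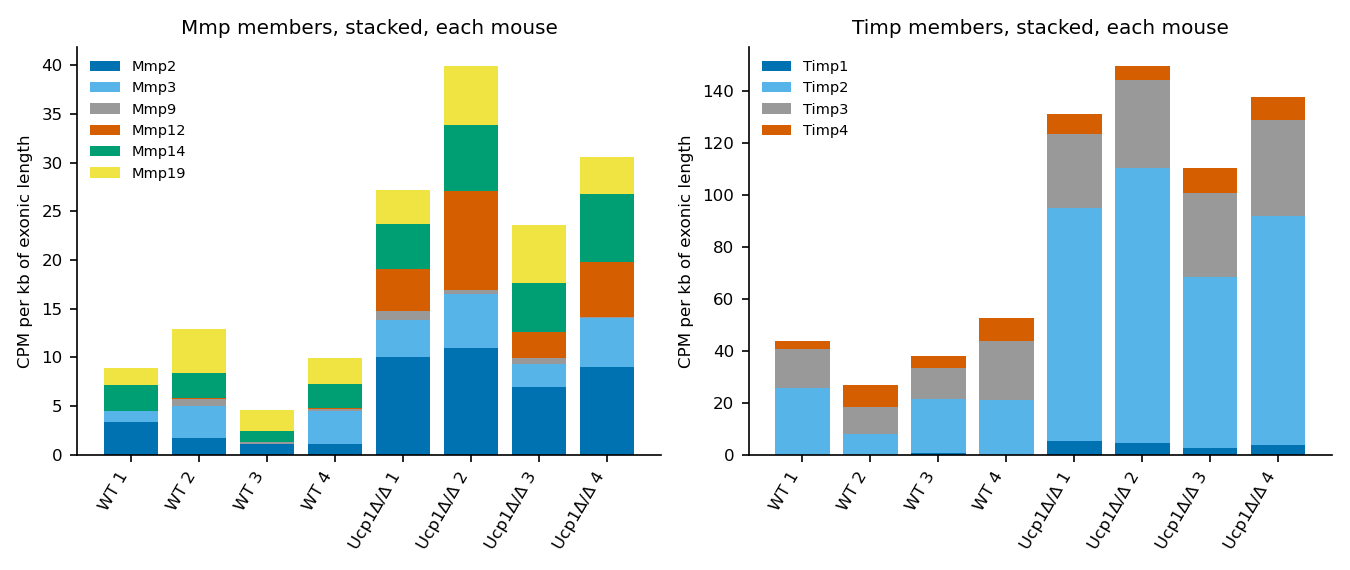
Summed CPM per kb of exon in each mouse, stacked by gene, for the proteases and the inhibitors; each bar starts at 0. Protease sums ran from 4.63 to 12.9 in WT and from 23.6 to 39.9 in Ucp1Δ/Δ mice, and inhibitor sums from 26.8 to 52.6 and from 110 to 150.

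In bulk tissue, more cells of a type and more RNA per cell cannot be told apart. All 8 tested macrophage markers of 10 listed were called higher in Ucp1Δ/Δ mice (edgeR), and their summed level was 101 to 156 CPM in WT and 949 to 1538 CPM in Ucp1Δ/Δ mice. Of 7 tested fibroblast and stromal progenitor markers, 6 were called higher, with sums of 539 to 870 and 1724 to 2742 CPM. The highest means in this sum were those of Gsn (390 and 1092 CPM) and Dcn (249 and 600 CPM). Pi16, the marker not called, was at 9.69 and 10.0 CPM. Levels given per CPM of this sum therefore lean on Gsn and Dcn. Brown adipocyte markers summed to 12926 to 20663 CPM in WT and 9026 to 13399 CPM in Ucp1Δ/Δ mice, with 1 marker called higher and 3 lower of 8. Neutrophil markers, whose cells are a known source of Mmp8 and Mmp9, summed to at most 6.27 CPM, and Ly6g and Mpo were at 0. Endothelial sums were 137 to 172 and 190 to 205 CPM, and smooth muscle and pericyte sums 187 to 284 and 295 to 332 CPM. Mast cell markers stayed at 13.8 CPM or less, with Fcer1a at 0. Beside the marker calls, 13.3% of all tested genes were called higher and 7.63% lower. The part of these cell types in the MMP and TIMP values was not tested.

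Mmp12 per 1000 CPM of macrophage markers was 0, 2.87, 0 and 4.39 CPM in WT and 25.8, 47.9, 20.3 and 41.7 CPM in Ucp1Δ/Δ mice. The groups stayed apart on this scale, with a ratio of means of 18.7. The WT values rest on 2 Mmp12 counts in all, so the size of this ratio is loosely fixed. Mmp12 was picked for its rise, so the gap is a description, and the part of macrophage number in it was not tested. Mmp14, Mmp19, Timp3 and Timp4 were lower per macrophage marker CPM in every Ucp1Δ/Δ mouse than in any WT mouse. The macrophage marker sum itself was 101 to 156 CPM in WT and 949 to 1538 CPM in Ucp1Δ/Δ mice. A gene that rose less than a marker sum comes out lower per CPM of that sum. No fall of these genes is therefore read from this scale. Per 1000 CPM of fibroblast markers, Timp2 was 38.6 to 149.2 CPM in WT and 149.3 to 165.4 CPM in Ucp1Δ/Δ mice, so that the groups touched. Mmp2 on this scale had a ratio of means of 1.74, Mmp14 of 0.921, Timp3 of 0.755 and Timp4 of 0.454, each with overlapping groups.

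**Figure D5:**
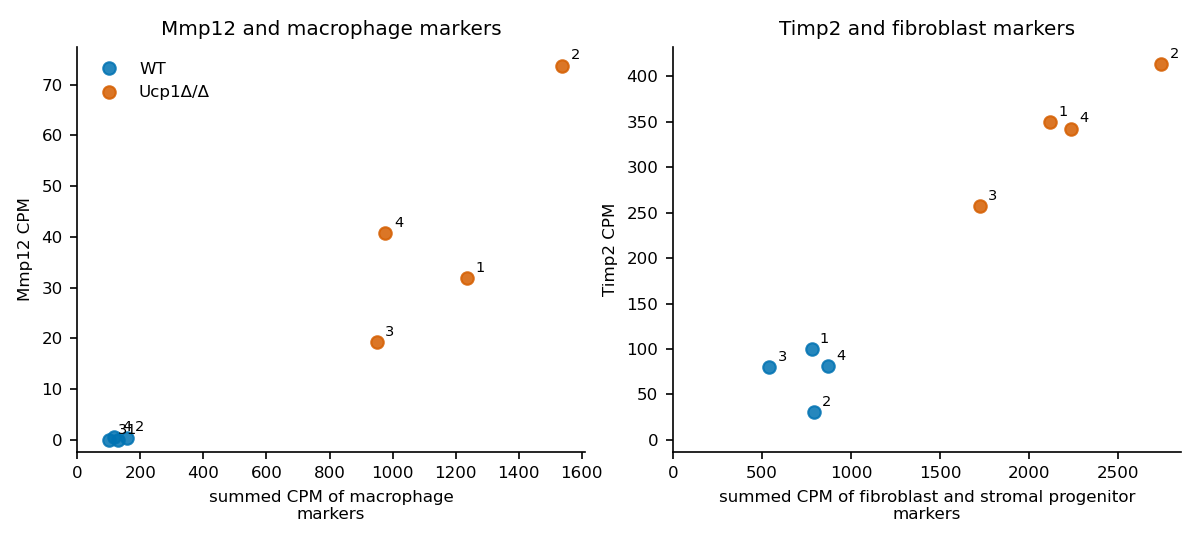
TMM-scaled CPM of members of the set against the summed CPM of a marker list, 1 point per mouse, 4 mice per genotype. Ucp1Δ/Δ mice lay at 949 to 1538 CPM of macrophage markers, where Mmp12 was at 19.2 to 73.7 CPM, and WT mice at 101 to 156 CPM, where it was at or next to 0.

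The genes whose profile over the 8 mice was nearest to that of Mmp12, by the root mean square difference of centred log2 CPM, were Lgals3 (0.20), Trem2 (0.34) and Gpnmb (0.47). Lgals3 encodes galectin-3, Trem2 a lipid-sensing receptor of myeloid cells and Gpnmb a glycoprotein of phagocytes. Lgals3 was at 6.91 ± 2.0 CPM in WT and 336 ± 131 CPM in Ucp1Δ/Δ mice (SD, n = 4 each), and Trem2 had 1 and 284 counts in all. Those nearest to Timp4 were Pgghg (0.20), Gmpr2 (0.22) and Lysmd4 (0.22), at mean levels of 3.8 to 11.2 CPM. All of these points share the 8 libraries. The distance includes the genotype difference, for which Mmp12 was picked, so genes with a similarly large rise come out nearest to it. The list is a description, and shared regulation was not tested.

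Among the other Mmp genes, 16 of 17 listed were in the table, 7 were at 0 in every mouse and 2 passed the filter. Mmp11, which encodes stromelysin-3, rose from 2.85 ± 0.647 to 13.7 ± 5.91 CPM (SD, n = 4 each), with a log2FC of 2.25 (SE 0.37, edgeR adjusted p = 0.00041). Mmp15, which encodes a membrane-type MMP, was at 4.94 ± 1.15 and 4.72 ± 2.01 CPM (edgeR adjusted p = 0.896). Mmp23 had 3, 7, 2 and 3 counts in WT and 11, 15, 7 and 7 in Ucp1Δ/Δ mice, so that the highest WT count equalled the lowest Ucp1Δ/Δ count. Mmp28 had 2, 1, 1 and 2 against 10, 3, 2 and 4 counts. Mmp16 and Mmp17 stayed below 2 CPM on average in both genotypes.

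ADAM and ADAMTS proteases are relatives of the MMPs that shed membrane proteins or cleave proteoglycans and procollagens. Of 32 listed, 12 were tested, 6 were called higher, 1 lower and 5 were not called, with a median log2FC of 0.89. The shares over all genes tested were 13.3% higher and 7.63% lower. Like the other gene lists, this one was chosen with earlier results of these data known, so nothing is read from its share. Adam8, a sheddase of leukocytes, had 0, 1, 0 and 0 counts in WT and 27, 84, 22 and 33 in Ucp1Δ/Δ mice, with a log2FC of 6.56 (SE 0.72, edgeR adjusted p = 1.14e-05). Adamts2, the procollagen N-proteinase, rose from 5.78 ± 2.09 to 30.0 ± 7.91 CPM (log2FC 2.37, edgeR adjusted p = 2.65e-05). Adamts5, an aggrecanase, rose from 12.1 ± 3.11 to 38.1 ± 9.67 CPM (log2FC 1.68, edgeR adjusted p = 0.00015). Adam19 rose by a log2FC of 2.05 (edgeR adjusted p = 0.00217). Adam12 fell from 13.0 ± 4.45 to 5.12 ± 1.29 CPM, a log2FC of -1.37 (SE 0.31, edgeR adjusted p = 0.00531).

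Regulators of MMPs include receptors that dock or clear them and furin-type convertases that activate them. Of 14 listed, 8 were tested, 4 were called higher, 0 lower and 4 were not called. Among all tested genes, 13.3% were called higher and 7.63% lower. Cd44, a hyaluronan receptor that docks MMPs at the cell surface, rose from 1.95 ± 0.670 to 23.0 ± 7.08 CPM (log2FC 3.59, SE 0.34, edgeR adjusted p = 3.45e-06). Thbs1, which encodes thrombospondin-1, rose with a log2FC of 2.86 (edgeR adjusted p = 0.000345). Cd63, a tetraspanin that binds TIMP1, rose from 99.3 ± 8.75 to 247 ± 88.4 CPM (log2FC 1.31, edgeR adjusted p = 0.00058). Lrp1, a clearance receptor for MMPs and TIMPs, rose from 50.1 ± 8.46 to 95.8 ± 15.4 CPM (log2FC 0.94, edgeR adjusted p = 0.00162).

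The plasminogen system generates plasmin, which cleaves matrix and activates several proMMPs. Only 4 of 11 listed genes were tested, of which 1 was called higher, 1 lower and 2 were not called. Over all genes tested the shares were 13.3% higher and 7.63% lower. Anxa2, a plasminogen receptor subunit, rose from 158 ± 16.8 to 278 ± 42.1 CPM (log2FC 0.82, edgeR adjusted p = 0.00243). Plgrkt, another plasminogen receptor, fell from 21.5 ± 5.70 to 11.8 ± 2.56 CPM (log2FC -0.85, edgeR adjusted p = 0.0229), a call lost in 5 of 18 alternative analyses. Plaur, the urokinase receptor gene, named after its values were seen, had 0 counts in each WT mouse and 7, 13, 3 and 1 in Ucp1Δ/Δ mice. Set against a limit of 3 counts over the WT group, the summed Ucp1Δ/Δ level was 6.81-fold higher. This value leaves out the counting error of the Ucp1Δ/Δ counts and the spread between mice, so it is no lower bound.

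Of the known MMP substrates, 18 of 20 listed were tested. In this list 15 were called higher, 0 lower and 3 were not called, with a median log2FC of 1.95. Over all genes tested, 13.3% were called higher and 7.63% lower. The list was chosen with earlier results of these data known, so nothing is read from its share. Col1a1 and Col3a1, which encode chains of the fibrillar collagens, rose with log2FC of 2.39 (edgeR adjusted p = 6.53e-06) and 2.74 (SE 0.30, edgeR adjusted p = 1.19e-05). Of the listed substrates, 2 (Col3a1 and Dcn) are also among the fibroblast markers, whose sums are given above with the cell types. Bgn, the proteoglycan biglycan, rose by 2.10 (edgeR adjusted p = 4.21e-06) and Mfge8, a bridging protein of phagocytosis, by 2.42 (edgeR adjusted p = 6.13e-07). Eln, the elastin gene and the namesake substrate of macrophage elastase, was named after its values were seen. It had a log2FC of 0.50 and was not called (edgeR adjusted p = 0.178).

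AP-1 and ETS transcription factors are known regulators of MMP promoters. Of 18 listed, 11 were tested, 9 were called higher, 0 lower and 2 were not called, with a median log2FC of 1.26. Beside this, 13.3% of all tested genes were called higher and 7.63% lower. The list was chosen with earlier results of these data known. Spi1, the myeloid ETS factor PU.1, rose from 3.68 ± 0.932 to 41.7 ± 11.8 CPM (log2FC 3.51, SE 0.28, edgeR adjusted p = 6.92e-07). Jund, an AP-1 subunit, rose from 62.7 ± 13.1 to 203 ± 36.6 CPM (log2FC 1.70, edgeR adjusted p = 1.74e-05), and Fosl2, another subunit, from 22.8 ± 6.67 to 59.1 ± 8.93 CPM (log2FC 1.39, edgeR adjusted p = 0.000277). Atf3, a stress-induced partner of AP-1, rose with a log2FC of 4.36 (SE 0.51, edgeR adjusted p = 2.19e-05). Jun was at a log2FC of 0.56 and was not called (edgeR adjusted p = 0.158), and is named after its values were seen.

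Several genes of the set overlap others on the opposite strand, and the strand setting of the counting was not given. Timp1, Timp3 and Timp4 lie within the synapsin genes Syn1, Syn3 and Syn2. Syn1 had 1 count over all mice. Syn3, which shares 1733 exonic bases with Timp3, had 2 counts over all mice. Syn2, which shares 90 exonic bases with Timp4, had 12 to 79 counts per mouse. It was called higher in Ucp1Δ/Δ mice (log2FC 1.49, edgeR adjusted p = 0.00042). How reads of shared bases were assigned was not given, so low counts of a neighbour do not show that Timp3 was unaffected. Mmp12 shares 157 exonic bases with Mmp1b, which had 0 counts. Mmp19 shares 789 with Tmem198b, which had 7 to 21 counts per mouse, so that reads of this pair may not be separated.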

How the data were processed

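Bulk RNA of BAT from 4 WT and 4 Ucp1Δ/Δ mice (ATGLKO in the labels) was sequenced single-end by a digital mRNA-seq service. The deposited table held raw counts per gene made by the authors. The study's methods name bbduk, STAR, mm10 and HTSeq-counts, whereas the submitters' processing notes name Trimmomatic, HISAT2, DESeq2 and GRCm38/mm10, so the aligner was not settled; the annotation release and strand setting were not given in the sources used here. The deposited log2 values were log2 of counts divided by a factor per mouse, plus 1, and served as an alternative input. Genes were tested in R 4.3.3 with edgeR 4.0.16 (filterByExpr, TMM scaling, quasi-likelihood test, Benjamini-Hochberg adjustment over the 8930 genes kept, threshold 0.05). CPM (edgeR) are counts scaled to the TMM-adjusted library size, and log2FC is Ucp1Δ/Δ minus WT. Positions are GENCODE M21 genes on mm10. Promoters are RefSeq windows on GRCm38.p6.

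The members and the gene lists were chosen with earlier results of these data known. Named genes were all members, every other Mmp gene with a count, up to 4 higher and 3 lower genes per list by adjusted p, the 3 nearest profiles of Mmp12, Timp1 and Timp4 (where tested) and Pnpla2. Mice of 1 genotype differed by a chi-square per degree of freedom of 4.69 to 23.2, so none was a duplicate. On simulated counts for this comparison (8930 genes, 8741 tested), 60.4% of genes changed by a log2FC of 1 and 99.0% of those changed by 2 were recovered, and 3.18% of calls were of unchanged genes. Alternatives included DESeq2 1.42.0 and limma 3.58.1, other scalings and filters, the replicate block and leaving out each mouse. The 2 added after seeing the data were limma trend on the deposited log2 values and the 4 mice with lower skeletal muscle markers.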

Additional observations from a re-analysis of the deposited data

Results flagged for a closer look

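In 7 of 75 groups of 4 mice, 1 mouse lay far from the other 3, with a gap to its nearest neighbour above 0.829 of the range of the group. For 4 normally distributed values, chance flags about 1 in 20 groups, which is 3.75 of 75. That rate does not hold for groups with few counts, so nothing is read from 7 beside 3.75. For Mmp14 in WT replicate 3 the gap was 0.908 of the range, with 7.01 CPM beside 14.7 to 15.8 CPM in the other WT mice. The remaining gaps were 1, because a few counts fell in 1 mouse and the other 3 were at 0. They were Timp1 in WT replicate 3 (2 counts), Mmp8 in WT replicate 2 and in ATGLKO replicate 2, Mmp16 in WT replicate 2, Mmp27 in WT replicate 3 and Adam8 in WT replicate 2 (1 count).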

How the results depend on the processing

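The set was chosen on this contrast, so calls of its members under other settings are a description and no independent sign of stability. Mmp2, Mmp12, Mmp14, Timp2 and Timp3 were each called higher in every alternative, of 18, that tested them, and their log2FC ran from 5.92 to 7.79 for Mmp12, 2.18 to 2.83 for Mmp2, 1.19 to 1.64 for Mmp14, 1.96 to 2.44 for Timp2 and 0.98 to 1.45 for Timp3. Mmp19 and Mmp3 were called in some of those that tested them, and Timp4 in 0. Only 2 alternatives tested Timp1 and Mmp9: Timp1 was called higher in these 2 and Mmp9 in 0. With at least 1 count in any mouse, 8 members, 2 other Mmp genes, 4 plasminogen genes and 14 AP-1 and ETS genes were higher. With at least 10 counts in every mouse, which leaves fewer genes tested, the counts were 3 members, 0 other Mmp genes, 2 Adam or Adamts genes, 2 regulators and 5 AP-1 and ETS genes, and 746 genes were higher and 449 lower in all. Total counts only moved the median log2FC to 0.13 and gave 1478 higher (78.5% of calls, 63.6% with TMM) and 404 lower genes, with 0 plasminogen genes lower. The 4 mice with lower skeletal muscle markers, an alternative chosen after seeing the data, gave 760 higher and 265 lower genes (74.1% higher), 5 members higher, 2 plasminogen genes higher and 0 lower. Plasminogen genes higher were 4 by DESeq2's Wald test and 2 by limma voom and without mitochondrially encoded genes. Leaving out 1 mouse gave 945 to 1304 genes higher, 400 to 851 lower, 5 to 6 members higher, 1 to 3 plasminogen genes higher and 0 to 1 lower; the fewest higher and lower genes came without ATGLKO replicate 2. Mmp15 changed sign to 0.046 with total counts and 0.15 in the mice with lower muscle markers, and ran from -0.32 to 0.089 without 1 mouse. Plgrkt lost its call in 5 alternatives (adjusted p 0.0568 to 0.256) and Adam19 in the mice with lower muscle markers (log2FC 2.07 beside 2.05 with all mice, adjusted p 0.0652 with 2 mice per genotype). The cause of the other changes was not tested.

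Whether replicate numbers pair the mice was not settled. Deviations from the genotype means correlated by -0.087, -0.196, 0.304 and 0.241 for numbers 1 to 4. Of 8 mice, 3 correlated best with their own number. With 4 mice per genotype these values cannot exclude pairing. With the replicate block, 1138 genes were higher and 581 lower, 6 members were higher and plasminogen genes higher were 2. Mmp9, Mmp13 and Timp1, with at most 13 counts in any mouse, were below the count filter and are limited by depth.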
